A study of Mus musculus with 12 samples.

Results

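The members described here are the alternative splice sites and mutually exclusive exons among the splicing events that differed between mouse cells with and without PRMT5. They are the rows of the 2 deposited splicing tables whose event class is an alternative 5′ splice site, an alternative 3′ splice site or a pair of mutually exclusive exons, grouped by exon coordinates, with Tia1 and Ccnl2 left out. This gave 50 events in 46 genes, of 306 events of all classes in both tables. Neural progenitor cells (NPC) had 35 of them, of 255 listed, and mouse embryonic fibroblasts (MEF) had 17, of 71 listed. Only 2 events were listed in both cell types. NPC held 11 alternative 3′ sites, 19 alternative 5′ sites and 5 events with exclusive exons, and MEF held 9, 3 and 5.

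RNA sequencing compared 4 groups of 3 libraries. NPC were neurospheres from the cortex of E14.5 mouse embryos and MEF were primary fibroblasts of the same stage, all of genotype Prmt5 F/FER on a mixed C57BL/6 X 129S1/SvlmJ background. Every culture thus carried the floxed allele, and the groups differed in 24 hours of treatment with 50 nM 4-hydroxytamoxifen (4-OHT), which induces the knockout, or with ethanol. With no treated culture that lacked the floxed allele, effects of 4-OHT or of the recombinase cannot be told apart from loss of Prmt5. The promoter behind the inducible recombinase is not given in the sources used here. In the authors' deposited table of expression, Prmt5 was at 33.4 RPKM (reads scaled to transcript length and library size) with ethanol and 4.92 RPKM with 4-OHT in NPC, and at 20.96 and 3.76 RPKM in MEF.

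A 5′ splice site marks the start of an intron, almost always with GT, and is first bound by the U1 small nuclear ribonucleoprotein. A 3′ splice site ends the intron with AG and is read by U2AF and the U2 particle, and when 2 AGs lie side by side either can be used. Mutually exclusive exons are neighbours of which a transcript takes one or the other. PRMT5 is the arginine methyltransferase that modifies Sm proteins, the shared core of these particles, before they are assembled.

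The tables compare 1 ethanol library with 1 4-OHT library under a pair code, 3 codes for each cell type. The inclusion level is the fraction of the longer form at alternative sites, or of the exon that comes first in the transcript at exclusive exons, after the authors' correction for length. An event was listed only in pairs with a deposited p under 0.05 and a difference above 0.2, so the size and sign of a listed difference are not independent of how it was chosen. Of the 52 event records (50 events, 2 of them in both cell types), 6 were listed in all 3 pairs and 46 in 2, and the remaining pair of the 46 is not known. The labels do not say whether libraries came from separate cultures. Reads of both forms per library ran from 3 to 6076 in NPC, with a median of 88.5, and from 7 to 1632 in MEF, with a median of 47.5. In 6 NPC and 8 MEF records at least 1 library had fewer than 20 reads.

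The closest pairs of sites lie 3 to 21 bases apart, and their sequences show what a switch adds or removes. Each sequence is the spliced junction of the longer form in a GENCODE M21 transcript of the same gene, 5′ to 3′, with the bases that only the longer form holds in capitals. At 3′ sites the letters before the capitals are the preceding exon, and the capitals end with the AG of the downstream site. At 5′ sites the letters after the capitals are the following exon, and the capitals begin with the GT of the upstream site. The first 8 are alternative 3′ sites and the others are alternative 5′ sites.
Hipk2: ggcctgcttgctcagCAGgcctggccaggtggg
Sox13: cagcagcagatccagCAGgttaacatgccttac
Tsc2: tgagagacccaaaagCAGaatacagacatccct
Pprc1: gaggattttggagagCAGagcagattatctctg
Usp48: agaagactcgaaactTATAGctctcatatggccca
Psma3: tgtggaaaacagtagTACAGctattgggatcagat
Tsc1: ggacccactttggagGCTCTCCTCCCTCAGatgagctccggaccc
Tcf7l2: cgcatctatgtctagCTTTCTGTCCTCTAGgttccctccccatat
Sorbs2: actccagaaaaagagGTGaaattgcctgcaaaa
Ggnbp2: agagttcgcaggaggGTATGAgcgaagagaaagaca
Kmt2a: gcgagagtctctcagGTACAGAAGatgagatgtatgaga
Ubr3: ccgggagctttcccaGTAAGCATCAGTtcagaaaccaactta
Neto2: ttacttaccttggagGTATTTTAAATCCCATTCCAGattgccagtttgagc

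The added bases could be read for 38 of the 40 alternative-site events. All 18 at 3′ sites ended with AG. At 5′ sites 19 of 20 began with GT, and the exception, Mettl17, began with GC. These letters belong to the site inside the longer form, and those of the outer site lie in the intron and were not read. The distance was a multiple of 3 in 25 of 40 events and in 10 of the 12 with sites 12 bases apart or closer. Of these 10, 6 have sites exactly 3 bases apart. No share over all alternative sites stands beside these counts, so they only describe the listed events.

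With 4-OHT the longer form was higher in 22 of 30 alternative-site records in NPC, 9 of 11 at 3′ sites and 13 of 19 at 5′ sites. Over all 255 events listed in NPC, 62% had a higher inclusion level with 4-OHT. That share joins classes that went opposite ways, with 79 of 82 retained introns higher and 51 of 135 skipped exons. In MEF the longer form was higher in 8 of 12, namely 8 of 9 at 3′ sites and 0 of 3 at 5′ sites, beside 50.7% of all 71 listed events. The MEF share likewise joins 19 of 21 retained introns and 7 of 32 skipped exons. The median absolute difference of inclusion was 0.294 over the NPC sites and 0.3235 over all NPC events, and 0.492 over the MEF sites and 0.4395 over all MEF events. The libraries of the 2 arms did not overlap in any of the 52 records, as in 100% of all listed NPC events and 98.6% of all listed MEF events, so the lack of overlap is a property of the lists and no result about these members.

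**Figure D1:**
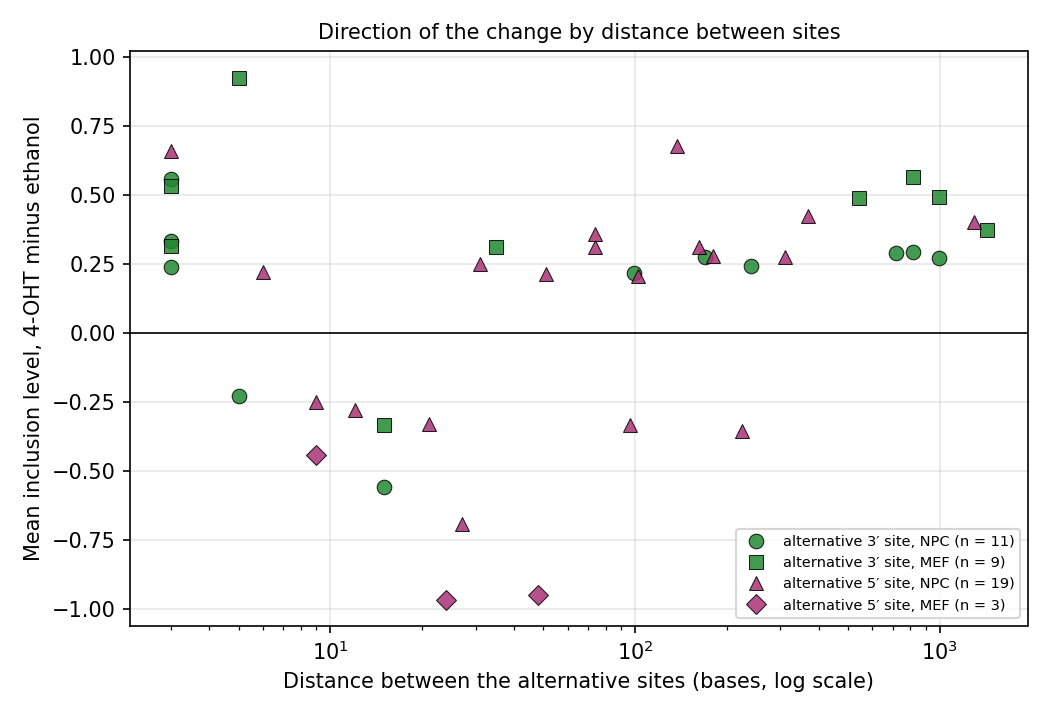
Mean difference in inclusion level (4-OHT minus ethanol, listed pairs) against the distance between the alternative sites in bases on a log axis, 1 point for each event and cell type, with colour for the class and marker shape for the class and cell type. All 6 records at 3 bases and 16 of 17 at 100 bases or more lie above 0, while 6 of 8 records from 5 to 15 bases and 5 of 11 from 16 to 99 bases lie below it.

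The direction differed with the distance between sites. At 3 bases all 6 records had the longer form higher with 4-OHT. From 5 to 15 bases 2 of 8 did, from 16 to 99 bases 6 of 11, and at 100 bases or more 16 of 17. With at least 20 reads in every listed library these counts were 2 of 2, 2 of 5, 6 of 8 and 15 of 16, so the part of the pattern under 16 bases rests on 7 records. The 17 records at 100 bases or more hold 15 distinct events, since events of Chtop and Iffo1 were listed in both cell types. The NPC events of Iffo1 also share reads. Beside the 16 of 17 at 100 bases or more stand 96.3% of listed retained introns in NPC and 90.5% in MEF. This is a description of listed events, with no test.

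Of the 3-base shifts, 5 were at tandem 3′ sites, where the added bases were CAG in Hipk2, Sox13, Tsc2 and Pprc1 and TAG in Prmt2. In Hipk2, a kinase that phosphorylates p53 (mm9 chromosome 6, 38671594 to 38671596, coding), NPC levels were 0.773 and 0.75 with ethanol and 1 in both 4-OHT libraries. The shorter form had 10 of 44 and 7 of 28 reads with ethanol. With 4-OHT it had 0 of 21 and 0 of 24, which allows shares of up to 14.3% and 12.5% of the reads. The authors' deposited table gives p-values of 0.0214 and 0.0292 for its 2 pairs.

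In Sox13, a transcription factor of the SoxD group (chromosome 1, 135285138 to 135285140, coding), the longer form moved from 0 and 0.267 with ethanol to 0.571 and 0.813 with 4-OHT. These values rest on 7 to 16 reads a library. Prmt2, another arginine methyltransferase (chromosome 10, 75699567 to 75699569, 5′ untranslated region), had 0 of 36 and 0 of 24 reads for the longer form with ethanol, which allows 8.33% and 12.5%. With 4-OHT it had 33 of 77 and 12 of 50 reads, for levels of 0.429 and 0.24. The longer form was thus seen only in the 4-OHT libraries of the 2 listed pairs, and the authors' deposited table gives p-values of 1.11e-06 and 0.0135.

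In MEF the tandem sites were in Tsc2 and Pprc1. Tsc2 encodes tuberin, which with the Tsc1 product restrains mTORC1 (chromosome 17, 24741935 to 24741937, coding). Its longer form had levels of 0.571 and 0.143 with ethanol and 0.938 and 0.846 with 4-OHT, from 7 to 16 reads a library. Pprc1, a coactivator of mitochondrial genes (chromosome 19, 46136631 to 46136633, coding), was listed in all 3 pairs, with levels of 0.182, 0 and 0 with ethanol and 0.432, 0.286 and 0.414 with 4-OHT. The mean went from 0.061 ± 0.105 to 0.377 ± 0.080 (SD, n = 3). All 3 4-OHT libraries were above all 3 ethanol libraries, for which an exact two-sided permutation test gives p = 0.1, the smallest possible with 3 against 3. Nearly all listed events separate the arms in this way. The p-value thus follows from the listing and is no evidence for the event, here or in the other records with 3 pairs.

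The sixth 3-base shift was at a tandem 5′ site of Sorbs2, an adaptor of the actin cytoskeleton (chromosome 8, 46885153 to 46885155, coding). The longer form had 0 of 3 and 0 of 10 reads with ethanol and 10 of 11 and 9 of 22 with 4-OHT in NPC. With 0 of 3 reads even a large share of the longer form could go unseen, and no other listed library had so few reads.

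**Figure D2:**
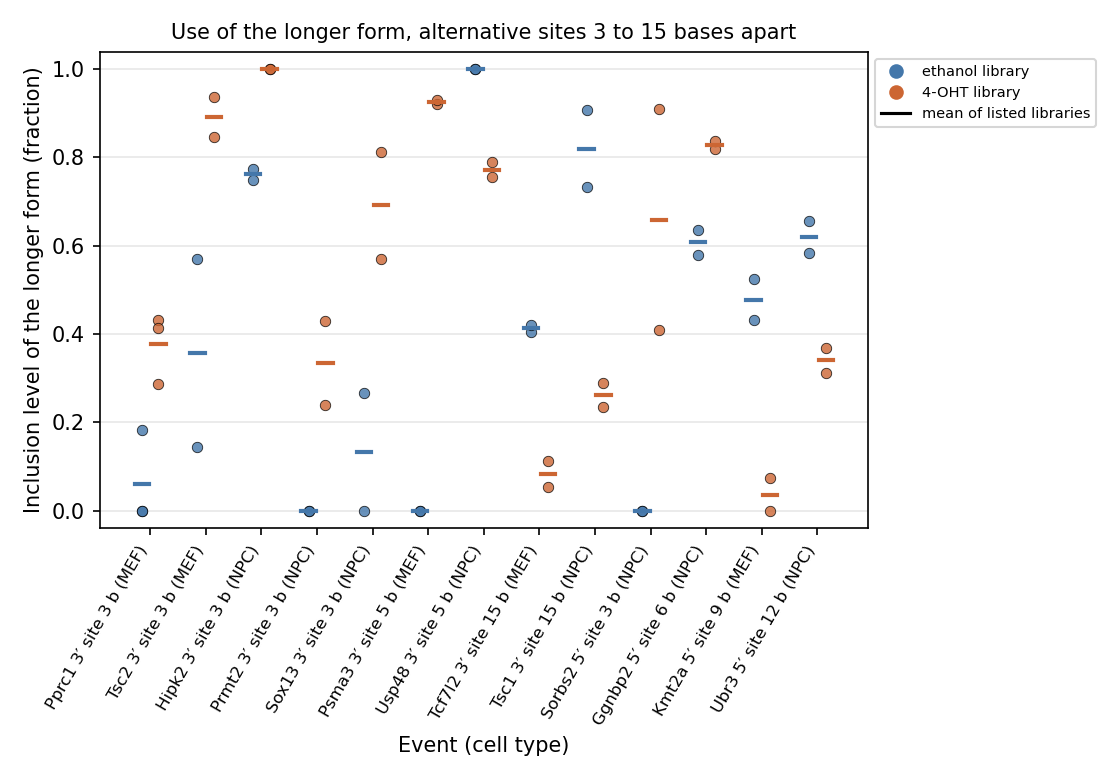
Inclusion level of the longer form (fraction) in each listed library for 13 of the 14 records with sites 3 to 15 bases apart, with ethanol libraries in blue, 4-OHT libraries in orange and their means as bars. The 6 records at 3 bases have orange above blue, and the records of Usp48, Tcf7l2, Tsc1, Kmt2a and Ubr3 have orange below blue.

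At 5 to 15 bases the shorter form was higher with 4-OHT in 6 of 8 records, and in 3 of the 5 with at least 20 reads in every listed library. Usp48, a deubiquitinase (chromosome 4, 137193675 to 137193679), gave 66 of 66 and 41 of 41 reads to the longer form in the ethanol NPC libraries. With 4-OHT the form without the 5 bases took 19 of 78 and 15 of 71 reads, and the level was 0.756 and 0.789. A difference of 5 bases shifts the reading frame. The authors' deposited table gives p-values of 6.70e-05 and 0.00342 for this event.

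Tsc1, which encodes hamartin, the partner of tuberin, had 3′ sites 15 bases apart (chromosome 2, 28534472 to 28534486, coding). The longer form went from levels of 0.908 and 0.732 with ethanol to 0.29 and 0.235 with 4-OHT in NPC, on 9 to 33 reads a library. In Tcf7l2, a Wnt pathway transcription factor, the sites were also 15 bases apart (chromosome 19, 55991829 to 55991843, coding). In MEF its longer form was at 0.405 and 0.421 with ethanol and at 0.053 and 0.112 with 4-OHT. A skipped exon of the same gene was listed too, 73 bases long and elsewhere in the gene, with a mean level 0.934 higher with 4-OHT.

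The 5′ sites 9 and 12 bases apart went the same way. Ubr3, an E3 ubiquitin ligase (chromosome 2, 69829683 to 69829694, coding), went from 0.655 and 0.584 to 0.369 and 0.312 in NPC. Kmt2a, a histone H3 lysine methyltransferase (chromosome 9, 44641981 to 44641989, coding), went from 0.431 and 0.525 to 0.073 and 0 in MEF, on 7 to 26 reads a library.

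The exception among 5′ sites of this size was Ggnbp2, a gametogenetin-binding protein (chromosome 11, 84654917 to 84654922, coding), with 6 bases between its sites. Its longer form was at 0.58 and 0.635 with ethanol and at 0.819 and 0.838 with 4-OHT in NPC. With 94 to 241 reads a library it is the best supported of the shifts under 16 bases in NPC.

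Psma3, a subunit of the 20S proteasome core, held 2 of the 3 largest differences and stood apart in its reads. It had 3′ sites 5 bases apart (chromosome 12, 72084306 to 72084310) and 5′ sites 24 bases apart (chromosome 12, 72079803 to 72079826), both listed in MEF. The longer form at the 3′ site had 0 of 43 and 0 of 36 reads with ethanol and 488 of 530 and 242 of 260 with 4-OHT. The shorter form at the 5′ site had 0 of 18 and 0 of 19 reads with ethanol and 488 of 516 and 242 of 254 with 4-OHT. The 488 and 242 reads are the same in both events, which share this junction, so the events are not independent of each other.

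The shared junction of Psma3 belongs to the annotated protein-coding form. The form with the shorter 3′ site, and the form with the longer 5′ site, are annotated only in transcripts subject to nonsense-mediated decay, the pathway that removes messages with an early stop. Reads over both forms were 10.0 times higher with 4-OHT than with ethanol at the 3′ site and 20.8 times higher at the 5′ site, while Psma3 was not listed in the MEF expression table. The part of this in the difference was not tested.

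Usp9x, an X-linked deubiquitinase, showed the same kind of record at 5′ sites 48 bases apart in MEF (chromosome X, 12742611 to 12742658, coding). The shorter form had 0 of 13 and 0 of 15 reads with ethanol and 99 of 116 and 61 of 64 with 4-OHT, and the level of the longer form went from 1 and 1 to 0.079 and 0.024. Reads over both forms were 6.43 times higher with 4-OHT, and Usp9x was not listed in the MEF expression table either. The median ratio of reads, 4-OHT over ethanol, was 1.37 over the 12 MEF site records and 1.09 over all 71 MEF events.

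**Figure D3:**
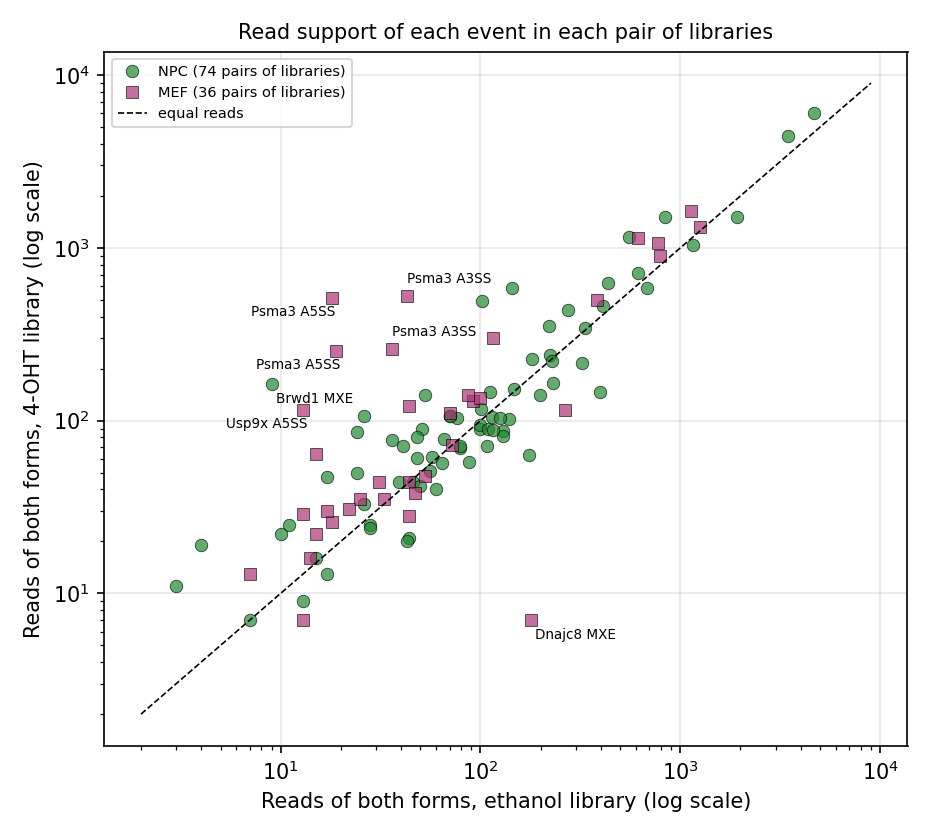
Reads of both forms in the ethanol library (x, log scale) and in the 4-OHT library (y, log scale) of each listed pair, with NPC as circles, MEF as squares and the dashed line at equal reads. Pairs with more than a 6-fold difference in reads are named by gene and class, and Psma3, 1 pair of Usp9x, 1 pair of Brwd1 and 1 pair of Dnajc8 lie far from the line.

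Between 16 and 99 bases both directions were seen. Neto2, an auxiliary subunit of kainate receptors, had 5′ sites 21 bases apart (chromosome 8, 88187286 to 88187306, coding) and was listed in all 3 NPC pairs. The longer form was at 0.649, 0.55 and 0.687 with ethanol and 0.36, 0.284 and 0.257 with 4-OHT. The mean went from 0.629 ± 0.071 to 0.30 ± 0.053 (SD, n = 3), with an exact two-sided permutation p = 0.1. Mapk10, the stress kinase JNK3, with sites 27 bases apart, went from 0.529 and 1 to 0 and 0.146 in NPC on 4 to 25 reads. Ldlrad3, a receptor of the low-density lipoprotein receptor class, with sites 96 bases apart, went from 1 and 0.911 to 0.604 and 0.639, with a raw-share difference of -0.132 beside -0.334 as deposited.

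The longer form was higher at the other sites in this range. Mtch1, a protein of the outer mitochondrial membrane, with 5′ sites 51 bases apart in coding sequence, had 412 to 716 reads a library and levels of 0.356 and 0.377 with ethanol and 0.56 and 0.602 with 4-OHT. Mrps17, a protein of the mitochondrial ribosome, went from 0.389 and 0.351 to 0.645 and 0.595 with sites 31 bases apart in the 5′ untranslated region. Ankrd16 and Ccnl1 each had 5′ sites 74 bases apart. The level in Ankrd16 went from 0.474 and 0.477 to 0.84 and 0.833, with a raw-share difference of 0.225 beside 0.361 as deposited. In Ccnl1, cyclin L1, which binds splicing-associated kinases, it went from 0.273 and 0.18 to 0.606 and 0.472. Arfrp1, a small GTPase of the Golgi, had 3′ sites 99 bases apart and went from 0.13 and 0.119 to 0.332 and 0.357 in NPC. Yars2, the mitochondrial tyrosyl-tRNA synthetase, had 3′ sites 35 bases apart and went from 0.529 and 0.621 to 0.777 and 1 in MEF.

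At 100 bases or more the added stretch is long enough to hold whole reads, and the inclusion count takes in reads that lie inside it. The deposited levels imply that inclusion reads were divided by 1.00 to 1.22 times the length used for exclusion reads at 3 to 15 bases. At 100 bases or more the factor was 3.44 to 40.3. A large difference in level can then rest on few junction reads, and the reads of the shorter form are given below for that reason. As a share of the summed raw reads with no length correction, the difference moved by more than 1.5 times in 13 of the 17 records at 100 bases or more. It was smaller in all of these but Tecr, and no direction turned.

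Chtop, a nuclear protein of the messenger RNA export complex that is named as a target of PRMT1, was 1 of the 2 events in both cell types. Its 3′ sites are 997 bases apart (chromosome 3, 90310184 to 90311180). In NPC the shorter form had 68 of 4669 and 41 of 3478 reads with ethanol and 0 of 6076 and 0 of 4453 with 4-OHT, and the level went from 0.705 and 0.748 to 1 and 1. In MEF it had 39 of 1255 and 28 of 793 reads with ethanol and 0 of 1326 and 0 of 899 with 4-OHT, and the level went from 0.524 and 0.491 to 1 and 1. The junction of the shorter form was thus read in all 4 listed ethanol libraries and in none of the 4 listed 4-OHT libraries. As a share of raw reads with no length correction, the difference was 0.013 in NPC and 0.033 in MEF. The intron that holds the added stretch, 1283 bases long, was listed as retained in both cell types, with a mean level 0.285 higher with 4-OHT in NPC and 0.513 higher in MEF, so these events share reads.

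Iffo1, a member of the intermediate filament family, was the other event in both cell types, with 3′ sites 819 bases apart (chromosome 6, 125101813 to 125102631). The level went from 0.208 and 0.243 to 0.512 and 0.531 in NPC and from 0.487 and 0.31 to 0.928 and 1 in MEF. The shorter form had 20 of 143 and 12 of 102 reads with ethanol and 23 of 587 and 18 of 494 with 4-OHT in NPC, and 5 of 116 and 8 of 92 against 1 of 300 and 0 of 130 in MEF. As a share of raw reads the difference was 0.093 in NPC and 0.060 in MEF, beside 0.296 and 0.566 as deposited levels. Yet another 3′ site of the same intron, 170 bases out, gave another NPC event with levels of 0.236 and 0.179 with ethanol and 0.488 and 0.478 with 4-OHT. There the shorter form had 20 and 12 reads with ethanol and 23 and 18 with 4-OHT. These are the same reads as in the 819-base event, and the 170 bases lie inside the 819. The NPC events of Iffo1 are thus not independent of each other, though each is counted as a record. Reads over the 819-base event were 4.41 times higher with 4-OHT in NPC and 2.07 times higher in MEF. Whether the change differed between cell types was not tested for either gene.

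Other 3′ sites far apart were in Cdv3, Gtpbp3, Plekhg2 and Ist1, all with the longer form higher. In Cdv3 the shorter form went from 39 of 1917 and 22 of 1155 reads to 0 of 1509 and 0 of 1040 in NPC, with sites 716 bases apart, and the raw share differed by 0.020. Gtpbp3, a modifier of mitochondrial tRNA, had sites 240 bases apart and went from 0.239 and 0.189 to 0.478 and 0.439 in NPC, where the shorter form had 24 and 26 reads with ethanol and 9 and 16 with 4-OHT. Plekhg2 had sites 545 bases apart and went from 0.234 and 0.332 to 0.549 and 1 in MEF. Its shorter form had 15 and 6 reads with ethanol and 7 and 0 with 4-OHT, and the raw share differed by 0.113. In Ist1, an ESCRT-III-related protein, the shorter form went from 9 of 772 and 7 of 382 reads to 0 of 1065 and 0 of 496 in MEF, with sites 1426 bases apart, and the raw share differed by 0.014.

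At 5′ sites the longest shift was in Luc7l, whose product associates with the U1 particle. The sites are 1297 bases apart (chromosome 17, 26390037 to 26391333), and the event was listed in all 3 NPC pairs. The longer form was at 0.434, 0.311 and 0.512 with ethanol and 0.85, 0.804 and 0.817 with 4-OHT, a mean of 0.419 ± 0.101 and 0.824 ± 0.024 (SD, n = 3), with an exact two-sided permutation p = 0.1. The shorter form had 15, 48 and 14 reads with ethanol and 3, 10 and 7 with 4-OHT (a raw-share difference of 0.036), while reads of both forms together were 1.80 times those with ethanol. A 71-base exon inside the added stretch was listed as well, with a mean level 0.552 higher with 4-OHT.

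Hnrnpf, an RNA-binding protein of G-rich sequences, had 5′ sites 369 bases apart in the 5′ untranslated region. Its shorter form had 23 of 321 and 39 of 683 reads with ethanol and 0 of 215 and 0 of 587 with 4-OHT, a raw-share difference of 0.062. In Rps16, a ribosomal protein, the shorter form had 11 of 43 and 7 of 17 reads with ethanol and 0 of 20 and 0 of 13 with 4-OHT, a raw-share difference of 0.30, with sites 137 bases apart. A 48-base exon inside that stretch was also listed, with a mean level 0.782 higher with 4-OHT. In both genes the shorter form was read only in the ethanol libraries of the listed pairs.

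Tecr, the last enzyme of very long-chain fatty acid elongation, had 5′ sites 162 bases apart and went from 0.074 and 0.039 to 0.312 and 0.423. Its shorter form had 124 and 327 reads with ethanol and 19 and 31 with 4-OHT, and the raw share differed by 0.553. Its reads moved the other way from most, with 570 over both forms with ethanol and 210 with 4-OHT, a ratio of 0.368. Trim24, a chromatin reader, went from 0.376 and 0.344 to 0.583 and 0.553 with sites 102 bases apart, and its shorter form had 109 and 81 reads with ethanol and 59 and 42 with 4-OHT. Mettl17, which acts in mitochondrial ribosome assembly, went from 0.267 and 0.245 to 0.495 and 0.579 with sites 180 bases apart. These levels rest on 25 and 17 reads of the shorter form with ethanol and 16 and 7 with 4-OHT. Ccnt2, cyclin T2 of the elongation factor P-TEFb, went from 0.46 and 0.435 to 0.741 and 0.71 with sites 310 bases apart. Reads of its shorter form were 31 and 27 with ethanol and 16 and 15 with 4-OHT, and the raw share differed by 0.078. Bdp1, a subunit of the RNA polymerase III factor TFIIIB, was the exception at this size, with sites 224 bases apart and levels of 0.659 and 0.784 for the longer form with ethanol and 0.391 and 0.344 with 4-OHT. Its shorter form had 14 and 5 reads with ethanol and 26 and 19 with 4-OHT, and the raw share differed by -0.140.

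**Figure D4:**
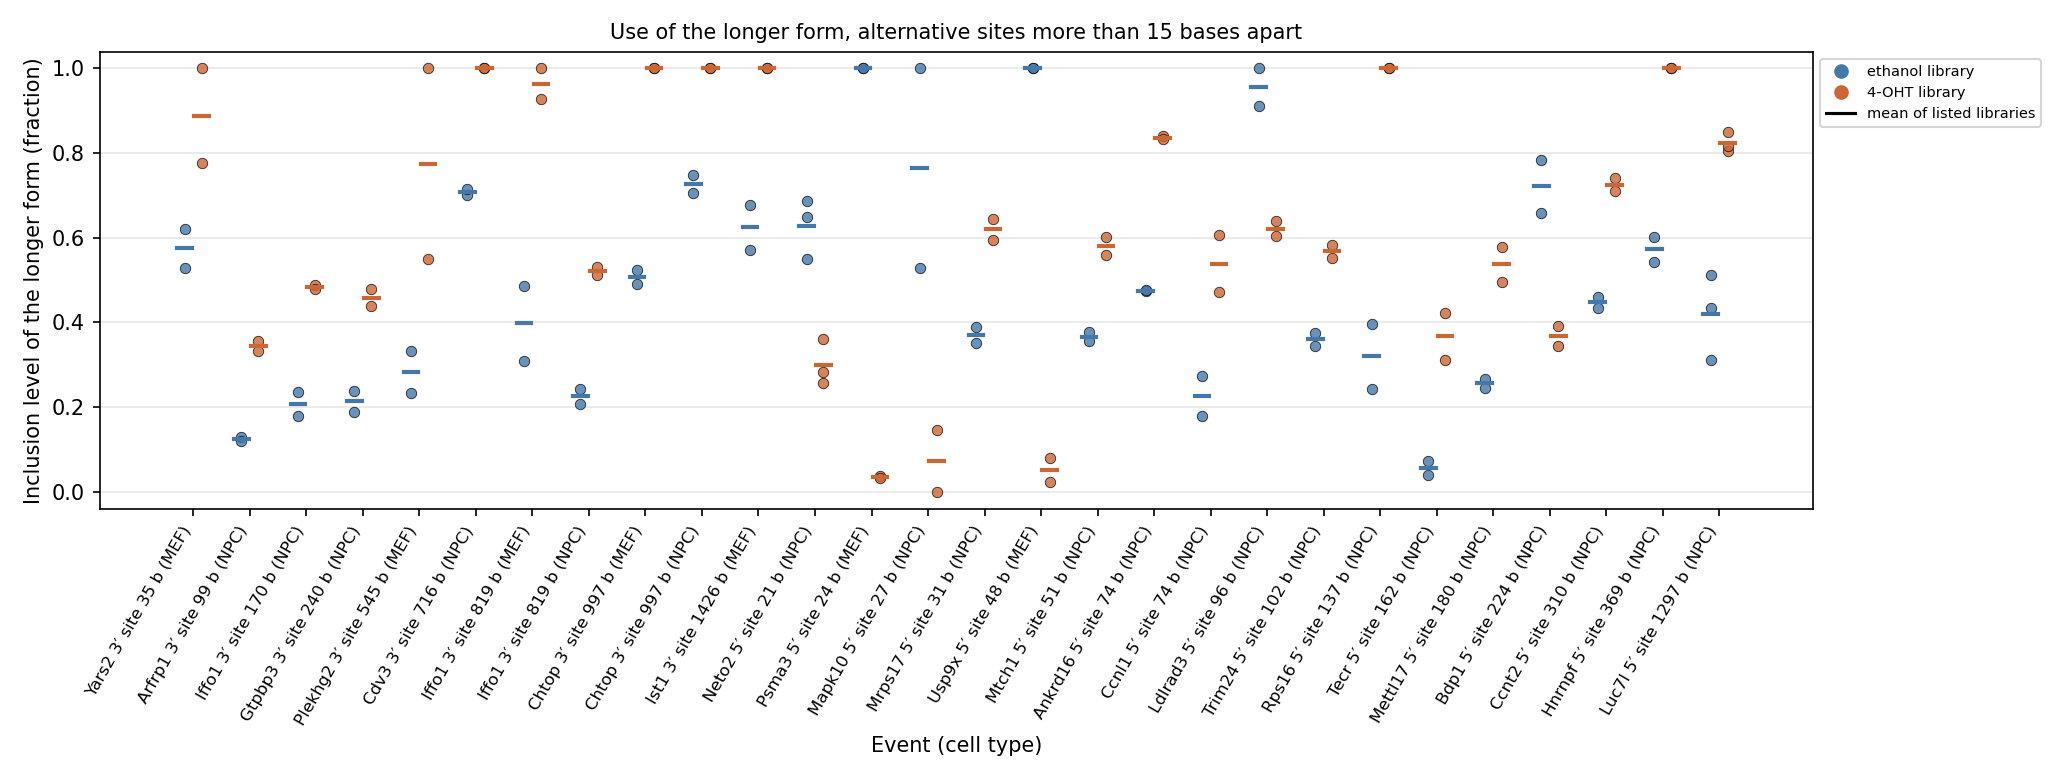
Inclusion level of the longer form (fraction) in each listed library for the 28 records with sites more than 15 bases apart, ordered within each class by distance, with ethanol libraries in blue, 4-OHT libraries in orange and their means as bars. Neto2, Psma3, Mapk10, Usp9x, Ldlrad3 and Bdp1 have orange below blue, and the other 22 records have orange above blue.

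Introns of both forms were found by length in the annotation for 37 of 40 events. The shorter form of Ist1 and Rps16 and the longer form of Mapk10 matched no annotated transcript. In 25 of the 37 both forms occur in a protein-coding transcript, in 11 only 1 form does, and in 1, Ccnl1, neither does. Only the shorter form was coding in Mettl17, Gtpbp3, Luc7l, Ccnt2, Plekhg2, Arfrp1, the 170-base site of Iffo1 and the 5′ site of Psma3. With 4-OHT the form without a coding transcript was higher in 7 of these 8, Psma3 being the exception. In all 8 that form is the longer one, and the 7 have sites 99 to 1297 bases apart. At 100 bases or more the longer form was higher in 16 of 17 records of any annotation, so annotation and distance cannot be told apart here. Only the longer form was coding in Ankrd16, Bdp1 and the 3′ site of Psma3, and the form without a coding transcript was higher in Bdp1 alone.

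Whether the added stretch holds a stop codon could be judged in 33 events. The frame of a coding shorter form was carried into it. Where an annotated coding sequence of the longer form ran through, no stop was counted. In Ankrd16, Bdp1 and the 3′ site of Psma3 that coding sequence alone decided. A stop was met in 11, all with sites 24 bases apart or more, where a longer stretch has more room for one. The longer form was higher with 4-OHT in 10 of the 11. No stop was counted in 22, and there the longer form was higher in 12 and the shorter form in 10. The 10 with the longer form higher and a stop have sites 99 to 1297 bases apart. They are Arfrp1, both Iffo1 sites (which share reads), Gtpbp3, Plekhg2, Cdv3, Chtop, Mettl17, Ccnt2 and Luc7l. The eleventh is the 5′ site of Psma3. In Cdv3, Chtop and the 819-base site of Iffo1 the intron of the longer form also occurs in a protein-coding transcript. Because an event was listed for its difference, these counts are given with no test.

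Retained introns overlapped 3 of the added stretches in NPC. Besides Chtop, the intron of Mrps17 that holds its 31 added bases had a mean level 0.306 higher with 4-OHT, and that of Arfrp1, with its 99 bases, 0.247 higher. Reads within those stretches count for both classes of event.

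Mutually exclusive exons were listed in 3 NPC genes and 5 MEF genes, none in both. Both forms matched annotated transcripts in 6 of the 10 events, and 5 of the 10 had a transcript that holds both exons. Galnt7, an enzyme that starts mucin-type glycans, is the one with 2 coding exons of the same length, 183 bases, annotated in separate transcripts and never together. The exons (chromosome 8, 60021632 to 60021814 and 60021309 to 60021491, minus strand) are identical at 126 positions, or 68.9%. They are shown from GENCODE M21 to let the likeness be seen, with capitals in the second where it differs from the first.
Galnt7 first exon: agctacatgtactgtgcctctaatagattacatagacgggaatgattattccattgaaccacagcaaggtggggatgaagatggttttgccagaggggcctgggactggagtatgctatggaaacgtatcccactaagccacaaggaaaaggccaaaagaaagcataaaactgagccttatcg
Galnt7 second exon: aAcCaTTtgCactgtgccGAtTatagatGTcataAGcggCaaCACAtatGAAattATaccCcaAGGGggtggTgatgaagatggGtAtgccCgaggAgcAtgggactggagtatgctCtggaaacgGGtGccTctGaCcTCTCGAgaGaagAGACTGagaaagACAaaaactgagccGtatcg

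The Galnt7 event was listed in all 3 MEF pairs. The inclusion level was 0.171, 0.114 and 0.133 with ethanol and 0.373, 0.393 and 0.545 with 4-OHT, a mean of 0.139 ± 0.029 and 0.437 ± 0.094 (SD, n = 3), with an exact two-sided permutation p = 0.1. In the 8 exclusive-exon events with unequal exon lengths, the length correction shows that the deposited level follows the first exon. With equal lengths, in Galnt7 and Brwd1, the table does not show which exon the level follows, and the first was assumed. Both genes are on the minus strand, and among the 8 events only that of Dnm1l is.

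Dnm1l, the GTPase of mitochondrial fission, had exons of 78 and 33 bases (chromosome 16, 16318857 to 16318934 and 16318538 to 16318570). The first exon was at 0.253 and 0.275 with ethanol and 0.457 and 0.537 with 4-OHT in NPC, on 89 to 152 reads a library. The annotation holds coding transcripts with the second exon alone, with both and with neither, so these exons are not strictly exclusive. Brwd1, a bromodomain protein, had exons of 849 bases each and was listed in all 3 NPC pairs. The form with its first exon matches a coding transcript, while the form with its second exon matches no annotated transcript. Its level was 0.889, 0.75 and 0.706 with ethanol and 0.454, 0.4 and 0.255 with 4-OHT, a mean of 0.782 ± 0.096 and 0.370 ± 0.103 (SD, n = 3), with an exact two-sided permutation p = 0.1. Reads over both exons were 9, 28 and 17 with ethanol and 163, 25 and 47 with 4-OHT, so 1 pair carries most of them. Without that pair the mean difference was -0.400, beside -0.412 with it.

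Tmem234, a membrane protein, gave 3 overlapping NPC events that share a second exon of 92 bases and have a first exon of 127 or 219 bases with the same start. The levels of the first exon were between 0.184 and 0.299 with ethanol and between 0.485 and 0.53 with 4-OHT over the listed libraries of all 3. Both versions of the first exon were also listed as skipped exons, with mean levels 0.408 and 0.426 higher with 4-OHT. The exons lie in the 3′ untranslated region of transcripts annotated for nonsense-mediated decay. These are 1 locus counted 3 times, and 2 of the 4 NPC records with a higher first exon would drop out if it were counted once.

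In MEF the first exon was lower with 4-OHT in Cct4, Dnajc8 and a gene known here only by its identifier, ENSMUSG00000072566, and higher in Rbx1. Cct4, a subunit of the cytosolic chaperonin, had exons of 90 and 109 bases and 616 to 1632 reads a library, the most of any exclusive-exon event. Its first exon was at 0.658 and 0.647 with ethanol and 0.368 and 0.391 with 4-OHT. The form with the first exon alone is annotated for nonsense-mediated decay, the form with the second alone as coding, and a coding transcript holds both. Dnajc8, a J-domain protein found with the spliceosome, went from 0.717 and 0.832 to 0 and 0.492, where the 0 rests on 7 reads beside 179 in its ethanol library. Coding transcripts of Dnajc8 are annotated with the first exon alone, with the second alone and with both.

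Rbx1, the RING subunit of cullin ubiquitin ligases, went from 0.046 and 0.277 to 0.418 and 0.533 on 100 to 266 reads a library, and its annotated transcripts that match hold both exons. The gene without a symbol, on chromosome 15, went from 0.919 and 0.914 to 0.574 and 0.576 on 31 to 44 reads, and neither of its forms matched an annotated transcript. Among the exclusive-exon records the first exon was higher in 4 of 5 in NPC and 2 of 5 in MEF, or in 5 of 5 and 1 of 5 if the level of Brwd1 and Galnt7 follows the second exon.

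**Figure D5:**
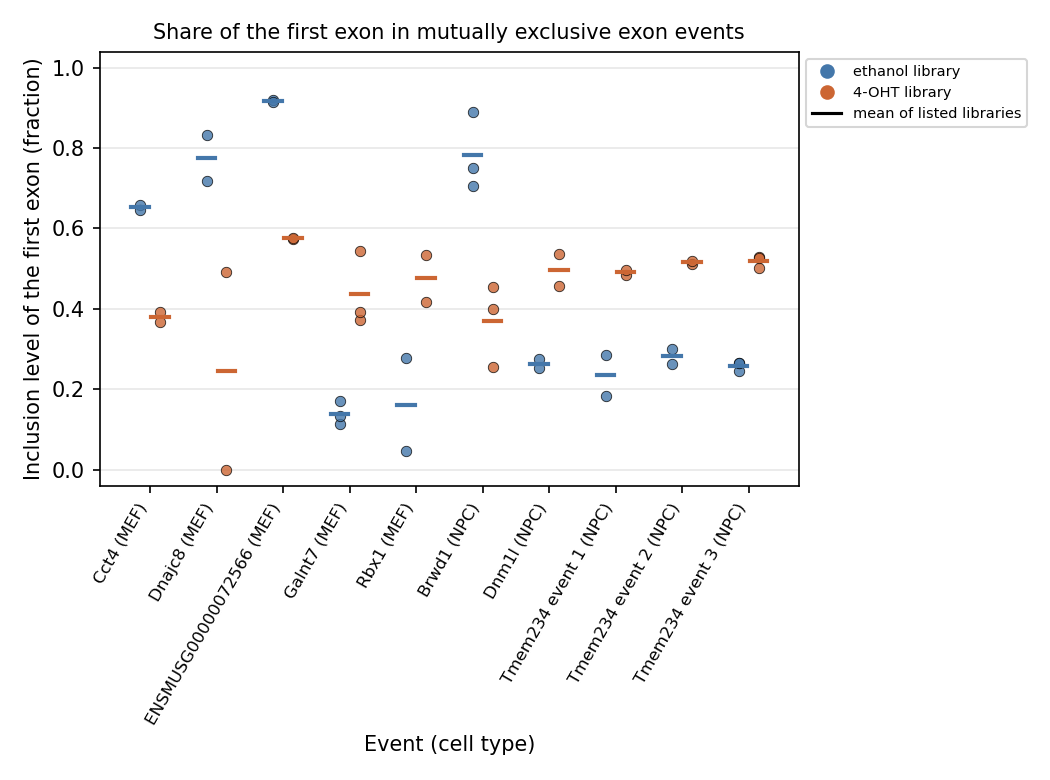
Inclusion level of the first exon (fraction) in each listed library for the 10 exclusive-exon records, with ethanol libraries in blue, 4-OHT libraries in orange and their means as bars. Galnt7, Rbx1, Dnm1l and the 3 Tmem234 events have orange above blue, and Cct4, Dnajc8, the unnamed gene and Brwd1 have orange below blue.

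Few of the genes were listed for a change in expression. In NPC 2 of 32 were in the authors' deposited table, beside 14% of the 222 genes with any listed event. Iffo1 went from 4.57 to 8.40 RPKM, a log2 change of 0.88, and Mapk10 from 1.54 to 2.50 RPKM, a log2 change of 0.69. In MEF 0 of 16 were listed, beside 3.28% of 61 genes. The tables give 1 value an arm and list only genes past a threshold, so a gene not listed is not shown to be stable.

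Splicing factors from 4 lists were looked up in the same deposited table, in which 43.4% of the 2416 NPC genes and 49.5% of the 111 MEF genes were lower with 4-OHT. The number of genes tested is not known, so no share of listed genes over all genes can be set beside these counts, and none is read as a result about a list. In NPC no U1-specific protein, U2AF subunit or U2-specific protein of the lists was listed. Of 21 genes for 5′ sites and U1, 3 were listed, all lower: Lsm7, Lsm2 and Lsm5, ring proteins of the U6 particle, with log2 changes of -0.63, -0.59 and -0.63. Of 33 genes for 3′ sites and U2, Dhx38, a helicase of the second splicing step, was listed, at -0.73. Of 22 Sm proteins and PRMT5 partners, Prmt5, Gemin6 and Snrpf were listed, at -2.76, -1.14 and -0.61. Of 47 SR and hnRNP proteins, Ptbp1, a repressor of neuronal exons, was listed, at -0.61. In MEF only Prmt5 was listed from these lists, at -2.48. Cell type markers moved with treatment in NPC as well: 7 of 10 glial markers were listed, all higher, 4 of 12 neuronal markers were listed higher and 1 lower, and of 13 progenitor markers Hes5 was listed, lower. Of fibroblast, endothelial and immune markers 2 of 12 (1 higher and 1 lower), 2 of 8 (both higher) and 2 of 10 (both higher) were listed, and of the marker lists none was listed in MEF. Several listed markers were at low levels in NPC, such as Gad1 (0.110 to 0.525 RPKM), Gfap (0.221 to 1.10) and Tek (0.080 to 0.140). Others were not, such as Aldh1l1 (67.7 to 118 RPKM). In bulk RNA, a change in the number of cells of a type and a change in RNA per cell cannot be told apart. The part of these markers in the splicing differences was not tested.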

How the data were processed

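RNA of 12 libraries was sequenced from TruSeq preparations, per the labels' protocols. CASAVA 1.8, TopHat2 2.03, Bowtie2 2.0.0.6, Cuffdiff 2.02 and genome build mm9 are named in the submitters' processing notes. The splicing tables hold, per the file headers, the read count of each form in 1 library of each arm, the inclusion level as a fraction and an unadjusted p-value, as deposited by the authors. The expression tables hold 1 RPKM value an arm, a log2 fold change and an unadjusted p-value of the authors. No library total was found in the tables or labels, and depth is given as reads per event, and limits from 0 reads (3 counts of the total) cover counting error only.

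Members, gene lists and alternatives were chosen with earlier results of these data known. Named were events in both cell types, shifts of 12 bases or less, exclusive exons, the 6 largest differences of each class and cell type with at least 20 reads in every library, and host genes in the expression tables. Other members are named for completeness, except 1 gene that counts in the totals and is not reported here by name. Coordinates are 1-based mm9. Forms were matched to GENCODE M21, which is on another build, within the same Ensembl gene by intron length and never by position, with Python 3.11 code tested on simulated data. Reads that end within a few bases of a junction can be hard to assign when sites are 3 bases apart, and how the aligner was set is not given in the sources used here. Deposited names that had lost letters or were older were replaced by Ensembl identifier for 5 genes.

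Pair codes match no label. Over events listed in 3 pairs, deviations of libraries of the same code from the event mean of their arm were compared. Pearson r was 0.177, 0.160 and 0.123 over 57 NPC events and 0.232, 0.665 and 0.252 over 8 MEF events. Between different codes it ran from -0.222 to 0.0999 in NPC and from -0.478 to 0.125 in MEF. Since listing required a difference in every pair, the code was taken as the pairing of the tables and not as evidence of shared cultures. Means and SDs are over listed libraries. A two-sided exact permutation test was run for the 6 records with 3 pairs, and values of the others are given with no test. Since listed events nearly always separate the arms, its p-value is no evidence for a record. Alternatives were read support, number of pairs, stricter thresholds, raw read shares, pairs left out in turn and a replicate block.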

Additional observations from a re-analysis of the deposited data

How the results depend on the processing

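The counts of direction depend on how many records a stricter list keeps. Sites with the longer form higher and the shorter form higher numbered 22 and 8 in NPC and 8 and 4 in MEF, and exclusive exons with the first or the second exon higher numbered 4 and 1 in NPC and 2 and 3 in MEF. With the exons of equal length (Brwd1, Galnt7) taken the other way round, a choice made after seeing the data, the latter were 5 and 0 in NPC and 1 and 4 in MEF. With at least 20 reads in every listed library, the 4 MEF sites with the shorter form higher became 0, the NPC record with the second exon higher became 0 and the 2 MEF records with the first exon higher became 1. That filter also left 7 of 12 sites within 12 bases and 15 of 25 sites in frame. In all 3 pairs the sites numbered 1 and 1 in NPC and 1 and 0 in MEF, and exclusive exons 1 first in NPC and 1 first and 0 second in MEF. With a deposited p under 0.01 in every listed pair, sites numbered 11 and 3 in NPC and 3 and 2 in MEF, the first exon was higher in 1 record of each cell type and the second in 0 of NPC. With a difference of at least 0.3 in every listed pair, NPC sites numbered 6 and 2, and the first exon was higher in 0 records of either cell type. Raw read shares with no length correction gave the same counts. Leaving out any 1 pair left them at 22 and 8 in NPC and 8 and 4 in MEF, which says nothing about stability, since all listed pairs of a record share 1 direction by the way records were listed. Over the 52 records, raw shares moved the difference by more than the SD between pairs in 29 and turned the direction in 0. With the replicate block, an exact sign-flip over pairs, the 6 records with 3 pairs had p = 0.25, the smallest that 3 pairs allow. Neither this test nor the unpaired one (0.1) could pass 0.05, so no call was made that the block could change.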
